A study of Mus musculus with 9 samples.

Results

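The BCL2 family and caspase genes examined here were 8 genes taken by symbol from the deposited gene table, which holds 55487 genes. They were 3 anti-apoptotic genes (Bcl2, Bcl2l1 and Mcl1), 3 pro-apoptotic genes (Bcl2l11, Bid and Bak1) and 2 caspase genes (Casp8 and Casp12). The RNA came from retinal explants, whole retinas kept in culture, taken at 28 days of age from C57BL/6J mice that were wild type. The control group, 5 libraries, was cultured for 48 h with 5 mM glucose, and the 2-DG group, 4 libraries, with 5 mM glucose and 20 mM 2-deoxy-D-glucose, a glucose analog that inhibits glycolysis. Before lysis every explant spent 1 h in Krebs' Ringer medium, and all libraries carry the same batch label. Sclera and pigment epithelium had been taken off before culture. The labels call the libraries biological replicates and do not say how many retinas or animals each holds, so that the p-values measure the spread between these libraries.

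Proteins of the BCL2 family decide whether the outer mitochondrial membrane stays closed. BAK (Bak1) and BAX form pores in it, the anti-apoptotic proteins BCL2, BCL-XL (Bcl2l1) and MCL1 hold them back, and the BH3-only proteins BIM (Bcl2l11) and BID release or activate them. Once cytochrome c leaves the mitochondria, a cascade of caspases, proteases that cut after aspartate, takes the cell apart. Caspase 8 starts the cascade at death receptors and cuts BID, and caspase 12 is a rodent caspase at the endoplasmic reticulum (ER) that has been linked to ER stress. In the retina, apoptosis removes surplus neurons during development and is one route of photoreceptor loss in disease.

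Libraries held from 11318087 to 51802230 estimated counts, and 3 counts corresponded to between 0.0556 and 0.255 CPM (counts scaled to a common library size, corrected for composition). The defining markers of retinal cells were present in every library: the CPM of 6 rod genes summed to 4482 to 38442 in control and 6748 to 14352 in 2-DG libraries (0 of 6 with a higher mean in 2-DG), of 5 bipolar genes to 143 to 1756 and 271 to 2747 (5 of 5 higher), of 5 ganglion cell genes to 234 to 1372 and 172 to 594 (0 of 5) and of 6 Müller glia genes to 1382 to 5910 and 549 to 2435 (2 of 6). The part of these differences in the values of the 8 genes was not tested. Sums over 8 vessel genes ranged from 411 to 2647, over 8 microglia genes from 31.0 to 90.8 and over 6 genes of the pigment epithelium from 3.56 to 94.0. Of the genes of lens, muscle and blood leukocytes, Lim2 and S100a9 were at 0 in all libraries. Control replicate 2 stood apart by its rod genes (38442 CPM, against 4482 to 14352 in the other libraries), and 2-DG replicate 4 by the lowest scaling factor (0.820) and the highest mitochondrial share of counts (13.6%).

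Of the 8 genes, 0 passed an adjusted p-value of 0.05 in edgeR's quasi-likelihood test over 21049 genes, the share of all genes being 0% as well (smallest adjusted p among the 8 was 0.601). At an unadjusted p under 0.05 there was 1, Casp12, which had more RNA in 2-DG explants. Among all genes tested, 2.42% were past that level and higher in 2-DG, and 4.83% were past it and lower. DESeq2 called 284 genes in all at the adjusted threshold, 0 of the 8 among them, and put 1 of the 8 and 10.3% of all genes under the unadjusted level. With limma-voom and quality weights 1222 genes were called, again 0 of the 8, and 4 of the 8 and 26.0% of all genes were under the unadjusted level. In 0 of the 8 genes did the 2 groups lie apart without overlap, a pattern seen in 1.52% of all genes (higher) and 1.41% (lower). Log2 fold changes (2-DG minus control) ran from −0.31 for Bid to 1.49 for Casp12, with a median of 0.03 over the 8 genes and of −0.01 over all genes.

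**Figure D1:**
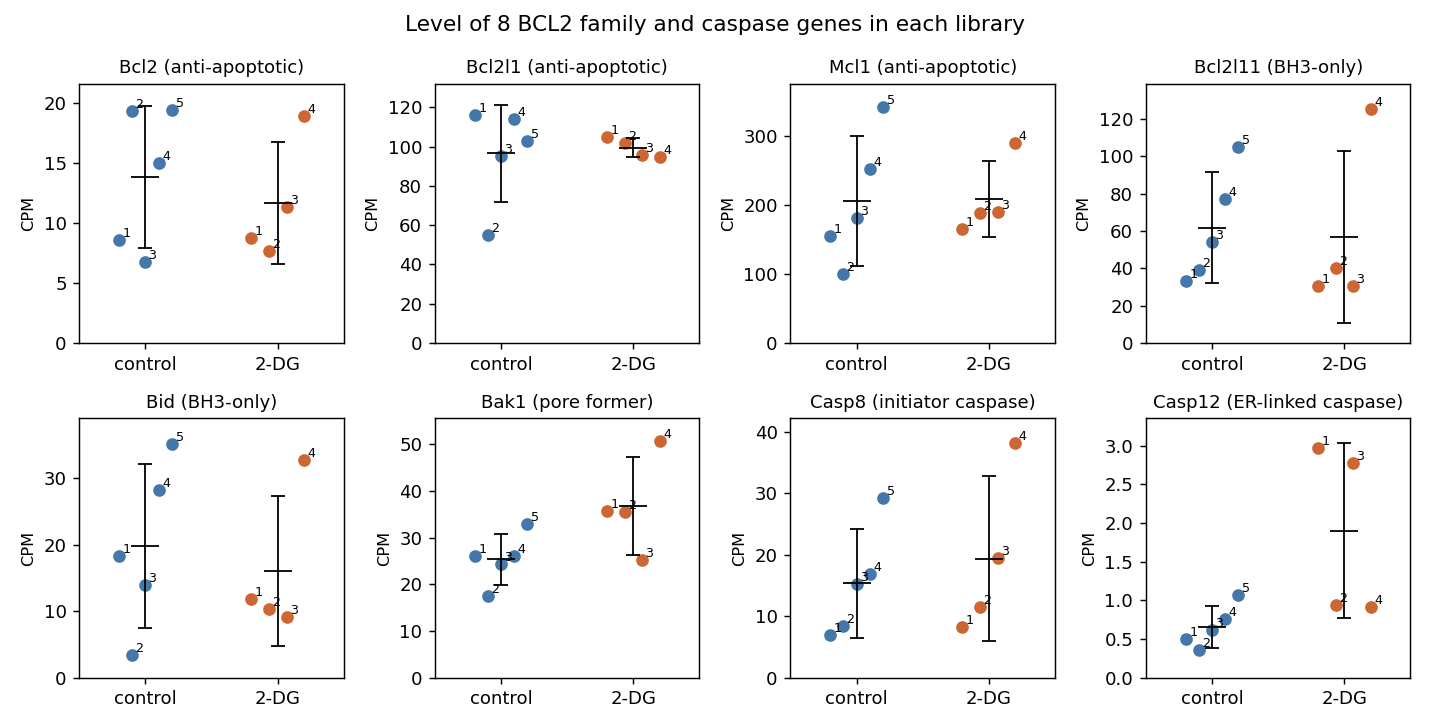
CPM of each of the 8 genes (vertical axis, linear from 0) in the 5 control libraries (blue) and the 4 2-DG libraries (orange). Each point is a library marked with its replicate number, and the bar is the mean with its SD. The 2 groups overlap in all 8 panels, and 2-DG replicates 1 and 3 stand at 2.97 and 2.78 CPM of Casp12, above every control library.

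Because long transcripts collect more reads, levels of different genes were compared as CPM per kilobase of exon, with every annotated exon base counted once. In control explants Mcl1 was the most abundant of the 8, at 60.4 ± 27.5 CPM per kilobase (SD, n = 5), and Bcl2l1 followed at 21.1 ± 5.38. With this length these neighbours did not overlap (lowest Mcl1 library 29.2, highest Bcl2l1 library 25.3). The length was 4586 bases for Bcl2l1, whose main transcripts have 2417 and 2568, and 3418 for Mcl1, the length of Mcl1-201. The Bcl2l1 level is therefore understated against Mcl1, and order and overlaps may differ with transcript lengths. Bak1 had 10.5 ± 2.29, Bcl2l11 7.69 ± 3.68, Bid 5.58 ± 3.49 and Casp8 5.30 ± 3.05 CPM per kilobase, and the ranges of each of these neighbours overlapped, as did those of Bcl2l1 and Bak1. Bcl2 came lower, at 1.51 ± 0.647, apart from Casp8 but overlapping Bid. Casp12 was the lowest at 0.172 ± 0.0707, and its highest control library (0.278) lay under the lowest Bcl2 library (0.734). In 2-DG explants (n = 4) the order was the same except that Casp8 (6.70 ± 4.63) stood before Bid (4.51 ± 3.18), well within their spread. Of the summed anti-apoptotic level per kilobase, Mcl1 gave 71.2 ± 6.41% in control and 72.0 ± 4.96% in 2-DG libraries, Bcl2l1 26.7 ± 6.24% and 26.5 ± 5.26%, and Bcl2 2.10 ± 1.58% and 1.48 ± 0.366%. These shares carry the same limit of length.

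The promoters of the most and the least abundant of the 8 genes are shown because they differ in base composition. RefSeq promoters on GRCm38.p6 (250 bases before to 50 after the start) were matched for all 8 genes, 11 promoters in all. The Mcl1 promoter held 33 CpG dinucleotides and 65.7% G and C, and the Casp12 promoter 3 CpG and 41.0%, where the median of 32851 promoters was 7 CpG and 52.7%. The stretches upstream of both the RefSeq and the GENCODE start are printed 5′ to 3′ on the plus strand, with CpG in capitals.
Casp12, chr9:5345226-5345429: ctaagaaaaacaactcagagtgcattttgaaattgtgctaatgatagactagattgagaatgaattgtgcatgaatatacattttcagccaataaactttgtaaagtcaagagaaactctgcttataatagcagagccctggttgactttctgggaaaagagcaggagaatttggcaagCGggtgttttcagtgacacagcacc
Mcl1, chr3:95658471-95658720: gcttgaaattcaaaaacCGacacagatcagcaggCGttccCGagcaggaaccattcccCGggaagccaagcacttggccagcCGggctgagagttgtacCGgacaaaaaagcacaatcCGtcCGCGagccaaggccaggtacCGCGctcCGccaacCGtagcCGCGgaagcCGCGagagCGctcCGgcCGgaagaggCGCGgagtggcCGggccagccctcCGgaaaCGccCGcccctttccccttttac
Among the other genes the promoter of Bcl2 held 44 CpG, those of Bcl2l11 27 and 38, that of Bid 22, those of Bcl2l1 1, 14 and 22, that of Bak1 11 and that of Casp8 5. The 2 caspase genes had fewer CpG than the median promoter, and each BCL2 family gene had at least 1 promoter above it. Letters of the ER stress element ERSE (in 0.12% of all promoters), of the unfolded protein response element (TGACGTGG, 0.68%), of a composite ATF4 element (TGATGNAAT, 0.96%), of the cyclic AMP element (TGACGTCA, 1.79%, which shares 6 letters with TGACGTGG) and of a TATA box (TATAAA, 13.62%) were searched on both strands and were not in these windows for any of the 8 genes.

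Casp12 (ENSMUSG00000025887, GRCm38 chromosome 9, 5345430 to 5373032, plus strand) was the gene with the largest difference of the 8. Control libraries had 0.4999, 0.358, 0.611, 0.764 and 1.07 CPM (replicates 1 to 5), and 2-DG libraries (replicates 1 to 4) 2.97, 0.933, 2.78 and 0.915. The higher mean in 2-DG came from replicates 1 and 3, and replicates 2 and 4 lay within the control range, though above the control mean. The means were 0.660 ± 0.272 (SD, n = 5) and 1.90 ± 1.13 CPM (SD, n = 4). This was a log2 fold change of 1.49 (SE 0.52, 95% interval 0.34 to 2.63, a 2.81-fold difference; adjusted p = 0.601 in edgeR), and 4 of 4 2-DG libraries were above the control mean.

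These values rest on few reads, from 5 counts in control replicate 2 to 150 in 2-DG replicate 3. The 95% Wilson interval of the count was 2.14 to 4.13 CPM in 2-DG replicate 1 and 2.37 to 3.26 in 2-DG replicate 3, above the interval of the highest control library (0.759 to 1.497, control replicate 5). It was 0.654 to 1.33 in 2-DG replicate 2 and 0.648 to 1.29 in 2-DG replicate 4. Without 2-DG replicate 1 the log2 fold change was 1.22 (adjusted p = 0.987 in edgeR) and without 2-DG replicate 3 it was 1.23 (adjusted p = 0.785), and in both of these fits the unadjusted p was no longer under 0.05. Without control replicate 2 it was 1.34 (adjusted p = 0.466). Over 17 alternative fits it lay between 1.22 and 1.72, and its adjusted p between 0.129 and 0.987.

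Markers of other cells differed between the libraries that were high in Casp12. 2-DG replicate 3 had the highest sums of pigment epithelium genes (94.0 CPM, against 3.56 to 27.9 in the others) and of microglia genes (90.8, against 31.0 to 68.1). 2-DG replicate 1 had the lowest sum of pigment epithelium genes (3.56) and 36.2 CPM of microglia genes, and its Casp12 level was as high. Of the 6 pigment epithelium genes 4, and of the 8 microglia genes 6, had a higher mean in 2-DG, and none was at 0 in all libraries. The part of these cells in the Casp12 difference was not tested. In a whole retina, fewer cells of a type and less RNA per cell cannot be told apart.

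Of the anti-apoptotic genes, Bcl2l1 (ENSMUSG00000007659, chromosome 2, 152780668 to 152831728, minus strand) was the steadiest. It had 115.9, 55.2, 95.4, 114.0 and 102.9 CPM in control libraries and 104.8, 102.0, 95.6 and 94.98 CPM in 2-DG libraries. Only control replicate 2 lay far from the rest, and the 2-DG libraries differed among themselves by 1.10-fold. The log2 fold change was 0.04 (SE 0.23, 95% interval −0.47 to 0.55, adjusted p = 0.977 in edgeR), and it was −0.11 without control replicate 2. A difference of more than 0.55 on the log2 scale lay outside the interval in either direction.

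Mcl1, whose protein is short-lived and has to be made anew (ENSMUSG00000038612, chromosome 3, 95658788 to 95663176, plus strand), had 155.6, 99.7, 180.9, 252.6 and 343 CPM in control and 165.7, 188.6, 190.4 and 290.5 CPM in 2-DG libraries. The 4 2-DG libraries fell inside the control range. The log2 fold change was 0.02 (SE 0.35, 95% interval −0.75 to 0.79, adjusted p = 0.994 in edgeR), and its direction turned in 7 of 17 alternatives. Bcl2 itself (ENSMUSG00000057329, chromosome 1, 106538178 to 106714274, minus strand) had 8.61, 19.3, 6.72, 15.0 and 19.4 CPM in control and 8.74, 7.65, 11.3 and 19.0 CPM in 2-DG libraries. High and low libraries occurred in both groups, and the log2 fold change was −0.24 (SE 0.40, 95% interval −1.13 to 0.65, adjusted p = 0.903 in edgeR).

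Bak1, the pore former (ENSMUSG00000057789, chromosome 17, 27019810 to 27029009, minus strand), had the second largest difference. Control libraries had 26.1, 17.5, 24.3, 26.1 and 32.9 CPM and 2-DG libraries 35.7, 35.5, 25.1 and 50.8 CPM. Of the 2-DG libraries, replicates 1, 2 and 4 lay above every control library, and replicate 3 lay among the controls. Its log2 fold change was 0.53 (SE 0.26, 95% interval −0.03 to 1.10, adjusted p = 0.704 in edgeR). It was 0.34 (adjusted p = 0.580) without 2-DG replicate 4, 0.68 (adjusted p = 0.757) without 2-DG replicate 3, and was above 0 in all 17 alternatives, 5 of which had an unadjusted p under 0.05.

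The BH3-only genes differed widely between libraries of 1 group. Bcl2l11 (ENSMUSG00000027381, chromosome 2, 128126038 to 128162547, plus strand) had 33.1, 39.3, 54.3, 76.9 and 105.1 CPM in control libraries and 30.5, 40.2, 30.3 and 125.3 CPM in 2-DG libraries. 2-DG replicates 1 and 3 lay under every control library, while 2-DG replicate 4 had the highest value of all 9. For this gene the log2 fold change was −0.13 (SE 0.49, 95% interval −1.22 to 0.97, adjusted p = 0.960 in edgeR). Without 2-DG replicate 4 it was −0.88 (adjusted p = 0.383, with an unadjusted p under 0.05), and without control replicate 5 it was 0.14 (adjusted p = 0.971).

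Bid, the substrate of caspase 8 (ENSMUSG00000004446, chromosome 6, 120891930 to 120916853, minus strand), had 18.3, 3.36, 14.0, 28.2 and 35.3 CPM in control and 11.8, 10.3, 9.12 and 32.9 CPM in 2-DG libraries. Its control libraries spanned a 10.5-fold range, the widest of the 8 genes. The log2 fold change was −0.31 (SE 0.60, 95% interval −1.64 to 1.02, adjusted p = 0.919 in edgeR) and −0.93 (adjusted p = 0.522) without 2-DG replicate 4. Casp8 (ENSMUSG00000026029, chromosome 1, 58795374 to 58847503, plus strand) had 6.96, 8.45, 15.3, 16.9 and 29.2 CPM in control and 8.32, 11.5, 19.5 and 38.2 CPM in 2-DG libraries. Both groups covered nearly the same range, and the log2 fold change was 0.34 (SE 0.52, 95% interval −0.81 to 1.48, adjusted p = 0.894 in edgeR). It was −0.22 without 2-DG replicate 4.

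The highest and lowest values of several of the genes fell in the same few libraries. Control replicate 4, control replicate 5 and 2-DG replicate 4 were the 3 highest libraries for Mcl1, Bcl2l11 and Bid, and 2-DG replicate 4 and control replicate 5 the highest for Casp8. The same 3 libraries had the highest sums of the 8 vessel genes (1216, 2175 and 2647 CPM, against 411 to 1177 in the others), and their sums of the 5 bipolar genes were 886, 143 and 271 CPM. In 2-DG replicate 4 most of the vessel sum came from Cdh5 (1346 CPM), Pecam1 (658) and Cldn5 (327). Its Kdr (50.2) was the lowest of all libraries, and Flt1, Pdgfrb, Rgs5 and Kcnj8 lay within the range of the others. Control replicate 2 was the lowest library for Bcl2l1, Mcl1, Bid, Bak1 and Casp12, and held the most rod RNA. The vessel genes were split between the groups, 4 of 8 with a higher mean in 2-DG, and the part of cell composition in these levels was not tested.

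**Figure D2:**
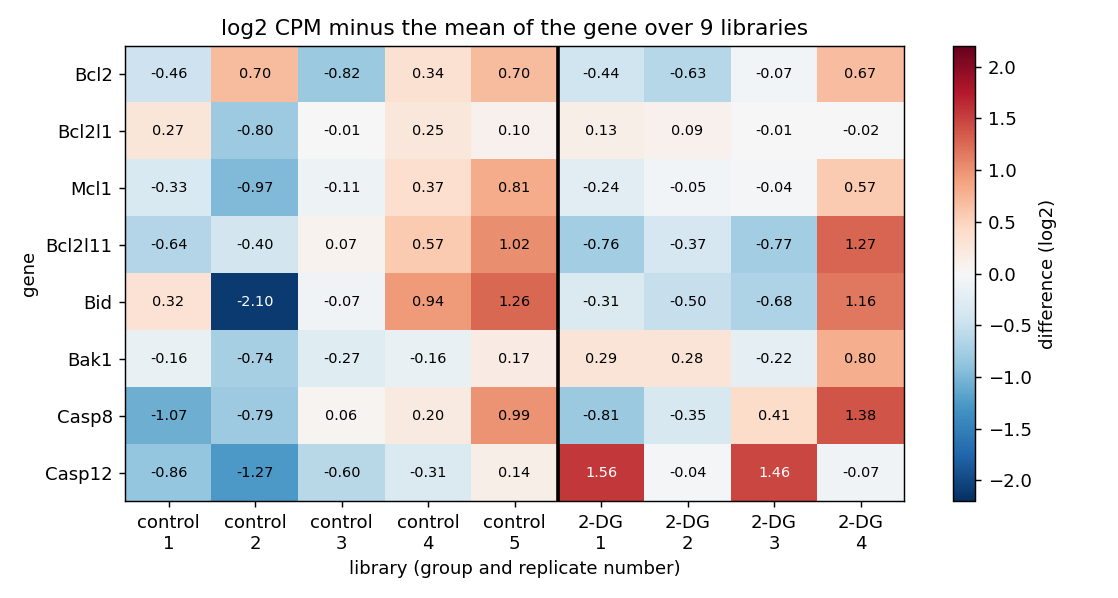
Difference of each library's log2 CPM from the mean of the gene over the 9 libraries, for the 8 genes (rows) in control replicates 1 to 5 and 2-DG replicates 1 to 4 (columns), red above and blue below the mean. Control replicate 5 and 2-DG replicate 4 are red for Mcl1, Bcl2l11, Bid and Casp8, and Casp12 departs from them with 1.56 and 1.46 in 2-DG replicates 1 and 3.

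The contrast of anti-apoptotic with pro-apoptotic genes was taken in each library as the mean log2 CPM of Bcl2, Bcl2l1 and Mcl1 minus that of Bcl2l11, Bid and Bak1. It was 1.10, 1.83, 0.89, 0.98 and 0.83 in control libraries and 1.19, 1.11, 1.63 and 0.44 in 2-DG libraries. The lowest value was in 2-DG replicate 4 and the highest in control replicate 2, so that the groups overlapped widely. The means were 1.12 ± 0.41 (SD, n = 5) and 1.09 ± 0.49 (SD, n = 4), a difference of −0.03 that is smaller than either spread. Its direction turned without control replicate 2 (0.14) and without 2-DG replicate 4 (0.18), and it was −0.21 without 2-DG replicate 3. No p-value is given, because the genes of the score were chosen with results of these libraries known. Within the pro-apoptotic genes the direction was mixed: Bak1 had a positive fold change and both BH3-only genes a negative one. Casp12 relative to Casp8 was −3.62, −4.31, −4.49, −4.34 and −4.69 on the log2 scale in control libraries and −1.46, −3.53, −2.78 and −5.28 in 2-DG libraries, with 3 of the 4 above every control and replicate 4 below them all.

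The transcript table listed all 39 transcripts that GENCODE M21 gives for the 8 genes, and 24 passed the filter on low counts. Of these, 0 passed the adjusted threshold, as for all 62900 transcripts tested (0%), and 1 had an unadjusted p under 0.05 in edgeR, in a direction seen in 2.28% of all transcripts (1.17% in the other). It was Bcl2l11-202, with 5.61 ± 2.60 CPM (SD, n = 5) in control and 2.69 ± 0.845 CPM (SD, n = 4) in 2-DG libraries (log2 fold change −1.06, SE 0.46, adjusted p = 0.9996 in edgeR). The main Bcl2l11 transcript, Bcl2l11-205, had 49.5 ± 30.6 and 51.7 ± 53.9 CPM and carried 78.0% and 81.6% of the counts of the gene. Next to it stood Bcl2l11-203 with 5.25 ± 3.82 and 6.91 ± 8.09 CPM.

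Most Bcl2l1 counts were shared between 2 coding transcripts, Bcl2l1-201 (53.5 ± 3.71 CPM in control, 56.8 ± 10.5 in 2-DG) and Bcl2l1-202 (32.6 ± 14.9 and 31.3 ± 6.92). Another transcript, not annotated as coding, carried 9.13% and 8.12% of the counts of the gene. Mcl1 counts were all given to Mcl1-201, Bcl2 counts mostly to Bcl2-201 (12.1 ± 4.92 and 11.4 ± 4.81 CPM, against 1.34 ± 0.997 and 0.571 ± 0.798 for Bcl2-202), and Bid counts mostly to Bid-201 (19.6 ± 12.5 and 16.3 ± 13.0 CPM), with 0.703 ± 1.41 and 0.122 ± 0.141 for Bid-204, which did not pass the filter. For Bak1 the 2 most abundant transcripts, Bak1-201 (19.0 ± 0.948 and 22.8 ± 4.68 CPM) and Bak1-204 (6.37 ± 5.86 and 9.77 ± 9.54), are annotated as targets of nonsense-mediated decay. Casp8 was led by Casp8-203 (8.27 ± 4.94 and 8.53 ± 6.25 CPM) and Casp8-202 (3.88 ± 3.25 and 7.25 ± 6.06). None of the 5 Casp12 transcripts passed the filter. The longest of them, Casp12-201, had 0.0993 ± 0.222 and 0.843 ± 0.972 CPM, with 70.8% of the Casp12 counts in 2-DG replicate 3 and 0% in 2-DG replicate 1, the 2 libraries with the highest gene level. Casp12-204 had 0.216 ± 0.102 and 0.418 ± 0.345 CPM. How reads were divided between transcripts carries an error that the deposited counts do not hold.

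To place the 8 genes in their pathway, 58 genes in 10 roles were examined, all of which passed the filter. In edgeR 0 passed the adjusted threshold, and at an unadjusted p under 0.05 there were 2 higher (3.45%) and 3 lower (5.17%), against 2.42% and 4.83% of all genes. The split was 7 higher and 19 lower with limma-voom, 9 and 7 with 2 surrogate variables, 5 and 1 with the replicate block, and 1 and 11 without 2-DG replicate 4. In either direction, 26.0%, 19.2%, 6.42% and 12.9% of all genes were under that level in these fits, against 7.25% in the main analysis. These shares were not computed by direction, so the splits cannot be set against all genes. In the main analysis higher values were found for 34 and lower values for 24 of the 58 genes. Their median log2 fold change was 0.05 (all genes −0.01, 50.8% lower). This majority turned without 2-DG replicate 4 (18 of 58 higher), without control replicates 1 (28) and 2 (26), with upper-quartile factors or library size only (26 each) and with limma-voom (17).

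**Figure D3:**
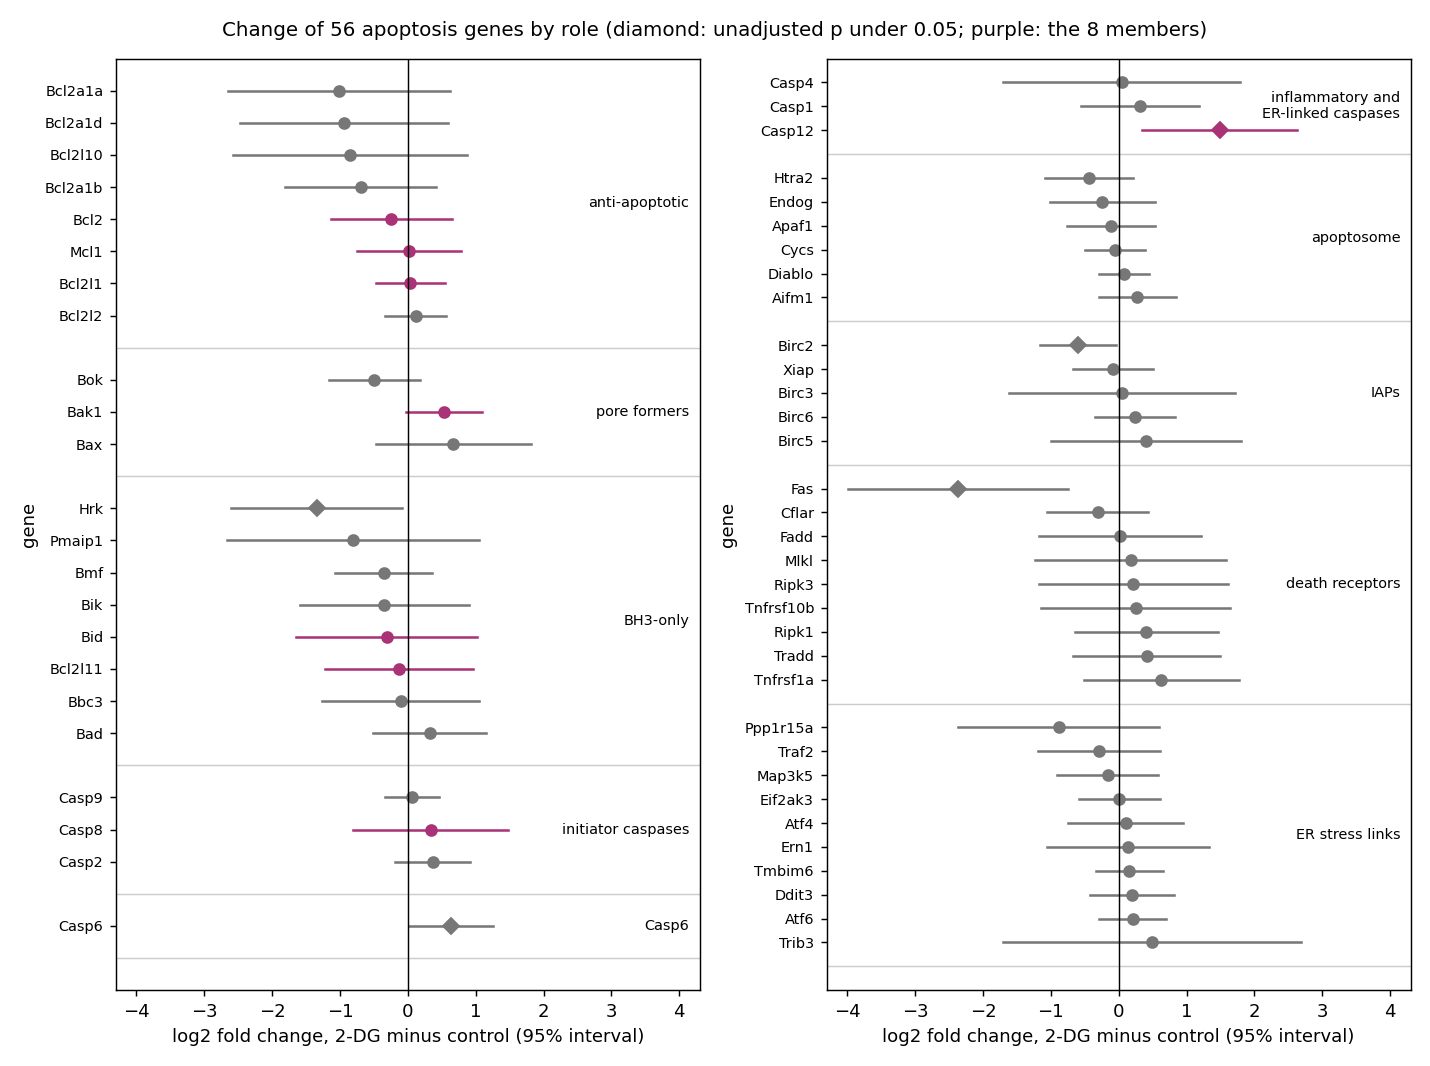
Log2 fold change (2-DG minus control, horizontal axis) with its 95% interval for 56 of the apoptosis genes, from edgeR on 9 libraries. Purple marks the 8 genes of this report and diamonds mark the 5 genes with an unadjusted p under 0.05: Casp12 and Casp6 on the right of 0, Fas, Hrk and Birc2 on the left.

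The 7 caspases reported here had a positive fold change with the main scaling, and 4 of them (Casp1, Casp2, Casp6 and Casp12) also in each of 17 alternatives. Casp8 and Casp9 kept the sign in 15 and Casp4 in 10. The median of the initiators Casp2, Casp8 and Casp9 was 0.34, and 0.15 when control replicate 1 or 2-DG replicate 4 was left out, and 0.18 when control replicate 2 was. It was 0.21 with library size only, limma-voom or 2 surrogate variables. That of the inflammatory and ER-linked caspases was 0.31, and 0.62 without control replicate 5, 0.47 without 2-DG replicate 2 and 0.17 with 2 surrogate variables. Casp6, an executioner caspase, had 6.81 ± 1.19 CPM (SD, n = 5) in control and 10.6 ± 2.54 CPM (SD, n = 4) in 2-DG (log2 fold change 0.64, SE 0.28, adjusted p = 0.687 in edgeR), above the control mean in 4 of 4. For Casp2 the value was 0.37 (SE 0.25, adjusted p = 0.784, and 0.21 with 2 surrogate variables), and for Casp1, which matures interleukin 1β and lies near Casp12 on chromosome 9, it was 0.31 (SE 0.39, adjusted p = 0.871). The Casp1 value was 0.024 without 2-DG replicate 1, 0.47 without 2-DG replicate 2 and 0.17 with 2 surrogate variables.

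In the other BCL2 roles, 7 of 8 BH3-only genes had a negative fold change, with a median of −0.33. Over the alternatives between 5 and 8 were negative, and the median was −0.91 without 2-DG replicate 4, −0.86 with limma-voom, −0.20 with the replicate block, and −0.06, −0.15, −0.17 and −0.11 without control replicate 5 and 2-DG replicates 1, 2 and 3. Hrk, a BH3-only gene of neurons, had 5.06 ± 2.84 and 2.02 ± 0.933 CPM (log2 fold change −1.34, SE 0.57, adjusted p = 0.674 in edgeR, below the control mean in 4 of 4). Of the 8 anti-apoptotic genes 5 were negative, with a median of −0.47, which was −0.88 without 2-DG replicate 4, −0.80 with limma-voom and −0.25 without control replicate 5. With upper-quartile factors, library size only, limma-voom and without control replicate 2, 7 of the 8 were negative. Bcl2a1b, a copy of the A1 gene, had −0.69 (SE 0.50, adjusted p = 0.791), which was −1.19 without 2-DG replicate 4 and −1.13 with limma-voom. Since reads of Bcl2a1a, Bcl2a1b and Bcl2a1d can be shared, their single values are uncertain. The third pore former family member, Bok, had 8.75 ± 2.02 and 6.22 ± 1.57 CPM (log2 fold change −0.49, SE 0.30, adjusted p = 0.767 in edgeR), opposite in sign to Bak1. Of the 3 pore formers 2 had a positive fold change, with a median of 0.53. Without 2-DG replicate 4 the median was −0.30 and with limma-voom −0.23, with 1 of 3 positive in each.

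The remaining roles held the gene with the smallest p-value of the 58, Fas, a death receptor that recruits caspase 8. Fas ranged from 3.65 to 105.4 CPM (median 53.6) in control and from 8.41 to 18.0 (median 8.91) in 2-DG libraries. All 4 2-DG libraries were below the control mean of 57.0 ± 40.6 CPM, but the lowest control library lay under them. Its log2 fold change was −2.37 (SE 0.73, adjusted p = 0.538 in edgeR), and 7 of the 9 genes of the death receptor role had a positive one, but 1 of 9 with limma-voom or without 2-DG replicate 4. Birc2, an inhibitor of apoptosis protein that guards death receptor signalling, had 109.8 ± 30.6 and 72.6 ± 10.5 CPM (−0.60, SE 0.25, adjusted p = 0.672 in edgeR, below the control mean in 4 of 4). Fas passed the adjusted threshold with DESeq2, limma-voom and 2 surrogate variables, Birc2 with the last 2 of these, and Hrk with surrogate variables. Htra2, a protease of mitochondria, had −0.43 (SE 0.29, adjusted p = 0.786), which was −0.71 without 2-DG replicate 4, −0.22 without control replicate 2 and −0.20 with 2 surrogate variables.

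Of the 10 ER stress links to cell death, 7 had a positive fold change, with a median of 0.12, and 0 had an unadjusted p under 0.05, against 7.25% of all genes. The median turned to −0.11 without 2-DG replicate 4, −0.06 without control replicate 2, −0.0088 with library size only and −0.13 with limma-voom. Ppp1r15a, which restores translation after ER stress, had the smallest p of them (log2 fold change −0.88, SE 0.67, adjusted p = 0.801 in edgeR). Its value was −1.81 without 2-DG replicate 4, −0.49 without control replicate 5 and −1.54 with limma-voom, and it passed the adjusted threshold with limma-voom and with 2 surrogate variables. Ddit3, which encodes CHOP and was named here after its value was seen, had 92.4 ± 26.9 and 105.6 ± 24.9 CPM (log2 fold change 0.19, SE 0.28, adjusted p = 0.889 in edgeR). Over the alternatives it ranged from 0.035 without control replicate 2 to 0.35 without 2-DG replicate 3, and it was 0.11 without 2-DG replicate 2.

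The dependence of the 8 genes on single libraries is shown by leaving each out in turn. Casp12 stayed the highest of the 8 in every one of these 9 fits (1.22 to 1.72) and Bak1 above 0 (0.34 to 0.68), whereas Bid ranged from −0.93 to −0.0038 and Bcl2 from −0.58 to −0.08.

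**Figure D4:**
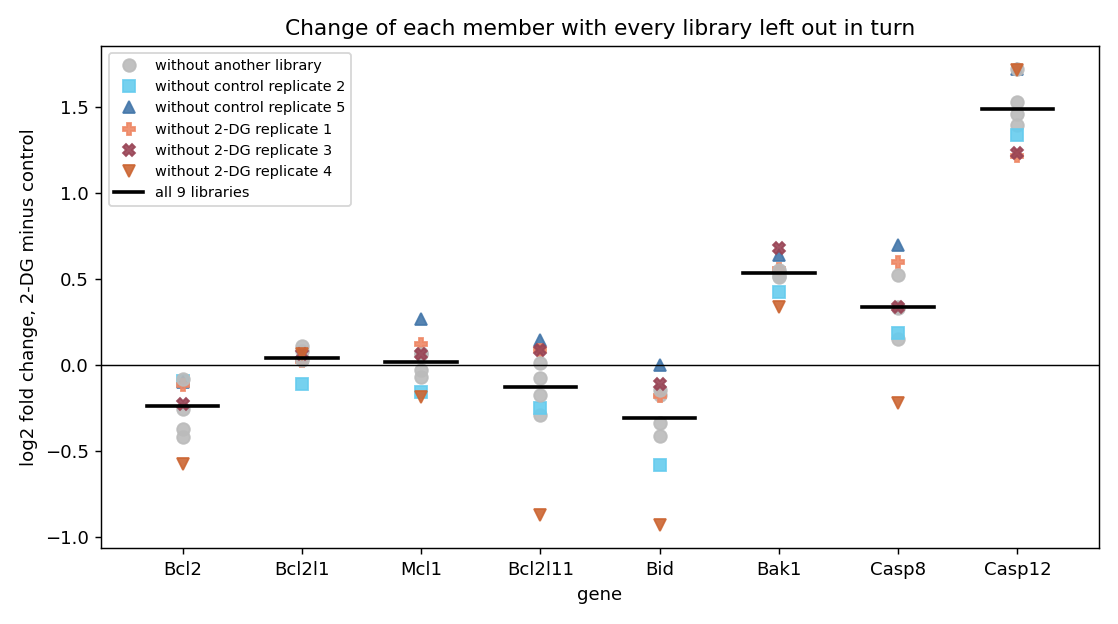
Log2 fold change (2-DG minus control) of the 8 genes with all 9 libraries (black line) and with each library left out in turn (symbols, named for the 5 libraries that moved values most). Casp12 stays between 1.22 and 1.72, and leaving out 2-DG replicate 4 moves Bcl2l11 to −0.88, Bid to −0.93 and Casp8 to −0.22.

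The genes whose log2 CPM was most like that of each of the 8 over the 9 libraries were found by Pearson's r, given as a description of libraries that share depth and composition. They were Rnd2 and Adig for Bcl2 (r of 0.985 and 0.984), Ston2 and Gm49266 for Bcl2l1 (0.972 and 0.964), Slc12a4 and Ifnar1 for Mcl1 (0.986 and 0.983) and Prcp and Cdc42ep3 for Bcl2l11 (0.990 and 0.988). For Bid they were Prr5l and Uck2 (0.989 and 0.978), for Bak1 Vac14 and Kars (0.980 and 0.977) and for Casp8 S100a13 and Ulbp1 (0.989 and 0.975). Casp12 had the weakest likeness, with Col5a2, a collagen gene, and Ehd2 (0.928 and 0.923). The 8 genes shared none of these neighbours.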

How the data were processed

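RNA-seq libraries were made by the authors from 4 ng of RNA with a stranded total RNA kit and 13 PCR cycles, and sequenced as pairs of 101 bases. The authors deposited estimated counts per gene and per transcript, unscaled. The submitters' processing notes list kallisto and GRCm38, and the version, annotation and the way transcripts were summed are not given in the sources used here. The authors also deposited a signal table of CPM on a scaled library size, which lists 12568 genes, 7 of the 8 members among them, and was used for 1 alternative of the anti-apoptotic minus pro-apoptotic level. Their own comparison table (log2 fold changes and p-values) was not used.

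Estimated counts were rounded (library totals changed by at most 0.00377%), filtered with filterByExpr, scaled with TMM and tested in R 4.3.3 with edgeR 4.0.16 (glmQLFit with legacy=TRUE, glmQLFTest, group as the only term), with Benjamini-Hochberg adjustment over all genes. Alternatives used limma 3.58.1, DESeq2 1.42.0 and sva 3.50.0. The standard error is the absolute log2 fold change over the square root of F, and intervals are 95% on the t scale. CPM are on the TMM-scaled library size, and log2 CPM use a prior count of 2. Wilson intervals and the floor of 3 counts cover counting error only.

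The members and lists were chosen with earlier results of these data known. Named were the 8 members, the other gene of each role with the smallest p, the 2 genes most like each member and the 2 most abundant transcripts of each. Groups and replicate numbers came from the sample titles. Coordinates and exon lengths are from GENCODE M21 and symbols from its gene name table (99.4% of IDs). Single values of 2 genes of the wider list are not reported here.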

Additional observations from a re-analysis of the deposited data

Results flagged for a closer look

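In 64 groups of 4 or 5 values, 8 held a library far from the others by Dixon's test, where chance gives about 1 in 20 independent groups of normally distributed values. These groups come from the same libraries and most are CPM on a linear scale, so the 8 cannot be set against that rate. 2-DG replicate 4 stood far above the other 2-DG libraries by this test for 5 genes: Bcl2l11 (125.3 CPM, the others 30.3 to 40.2), Bid (32.9 CPM, the others 9.12 to 11.8), Htra2 (35.2 CPM, the others 18.2 to 19.8), Fas (18.0 CPM, the others 8.41 to 9.33) and Ppp1r15a (731.7 CPM, the others 105.6 to 186.4). Control replicate 2 did so among control libraries for Htra2 (48.7 CPM, the others 22.7 to 30.1), for the anti-apoptotic minus pro-apoptotic level (1.83, the others 0.83 to 1.10) and for the sum of rod genes (38442 CPM, the others 4482 to 13296).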

How the results depend on the processing

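The count of 0 members past the adjusted threshold stayed at 0 in all 17 alternatives, and that of member transcripts in all 12 run for them. The number of members at an unadjusted p under 0.05 was 1, and 4 with limma-voom (Bcl2l11, Bid, Bak1 and Casp12), 2 with 2 surrogate variables (Bak1 and Casp12), and 0 to 2 without each library. For the wider list it was 5, and 26 with limma-voom, 16 with 2 surrogate variables, and 2 to 12 without each library, the highest without 2-DG replicate 4. Of all genes, 7.25% were under that level in the main analysis, 26.0% with limma-voom, 19.2% with 2 surrogate variables, 6.42% with the replicate block and 12.9% without 2-DG replicate 4. In these fits some genes of the wider list passed the adjusted threshold: Fas with DESeq2; Fas, Birc2, Ppp1r15a and Pmaip1 with limma-voom; Fas, Birc2, Ppp1r15a and Hrk with 2 surrogate variables. All genes past that threshold numbered 0, and 284, 1222 and 693 in these 3 fits, 16 without control replicate 2 and 2 without 2-DG replicate 4.

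Directions turned for Bcl2l1 (−0.035 with upper-quartile factors, −0.024 with library size only, −0.023 with limma-voom, −0.084 with 2 surrogate variables), Mcl1 (−0.071, −0.070 and −0.23 in the first 3 of these), Casp8 (−0.38 with limma-voom) and Bcl2 (0.092 with 2 surrogate variables). Without each library the ranges were −0.11 to 0.11 for Bcl2l1, −0.19 to 0.27 for Mcl1, −0.88 to 0.14 for Bcl2l11 and −0.22 to 0.70 for Casp8. The cause was not tested. The anti-apoptotic minus pro-apoptotic difference lay between −0.21 and 0.18 without each library. Replicate numbers did not pair the samples (correlations of deviations 0.45, −0.15, 0.10 and 0.21, with 1 of 4 numbers matching best with its own). With the replicate number as a block, 2 members had an unadjusted p under 0.05 (Bak1 and Casp12), 0 passed the adjusted threshold, and Bid turned to 0.11. The depth limits Casp12, with 5 to 150 counts.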
